A study of Homo sapiens with 6 samples.

Results

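The genes described here are 10 genes of the cell's response to low oxygen: HIF1A, EGLN1, EGLN3, VEGFA, ADM, BNIP3, BNIP3L, NDRG1, P4HA1 and ANKRD37, out of 19866 protein-coding genes with RefSeq coordinates on GRCh38. They were chosen by name as targets and regulators of the hypoxia-inducible factors, because hypoxia drives lactate production, and all 10 were found in the annotation. The cells were HepG2, a widely used human line from a hepatocellular carcinoma. In CUT&Tag, the assay used, a transposase tethered to an antibody cuts and tags the DNA near the protein or mark bound. Libraries were made with antibodies to ENO1 (enolase 1, an enzyme of glycolysis), to H4K12la (lactylation of histone H4 at lysine 12) or to HDAC1 (a histone deacetylase). Each of these 3 targets had 2 replicate libraries, and the labels name no treatment, genotype change or oxygen level for any of the 6. Whether the replicates were separate cultures is not stated there, so their spread may be technical.

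The hypoxia-inducible factors are pairs of transcription factor subunits. In cells with oxygen, prolyl hydroxylases of the EGLN family mark the alpha subunit for destruction by the VHL ubiquitin ligase; when oxygen is short the subunit persists, enters the nucleus and binds DNA at the core letters ACGTG or GCGTG. Its targets shift the cell towards glycolysis and lactate, call in blood vessels and remove mitochondria.

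The 6 peak lists held 1189 to 7568 peaks on the 24 chromosomes, fewest for ENO1 (1592 and 1189 in replicates 1 and 2), against 5459 and 7568 for H4K12la and 5727 and 4567 for HDAC1. The authors called peaks in each library and gave each a fold enrichment over the background of the same library and a -log10 q. Folds are used here to describe and rank peaks within a list, since lists were not scaled to each other. Read depth is unknown because only peak lists were used, and signal too weak to be called would not show. Of 9 hepatocyte marker genes, HNF4A, a liver transcription factor, was the only gene with a gene-end peak in both replicates of any target (H4K12la), and of 6 markers of other lineages none had. Peaks do not measure expression, so these values do not test the identity of the cells.

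Around the hypoxia genes, from 50 kb before to 50 kb after each, the 6 lists held 35 peaks, of which 16 lay within 1 kb of an annotated end of the gene, 2 inside the gene away from its ends, and 17 in the flanks. None of the 35 was an ENO1 peak. ANKRD37 and P4HA1 carried H4K12la and HDAC1 at their ends in all 4 libraries of these targets, and HIF1A carried HDAC1 in both replicates. EGLN3, ADM, BNIP3 and BNIP3L had gene-end peaks in 1 replicate only, and EGLN1, VEGFA and NDRG1 had none in any library. Over all protein-coding genes, 70.9% (14083 genes) had no gene-end peak in any library.

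**Figure D1:**
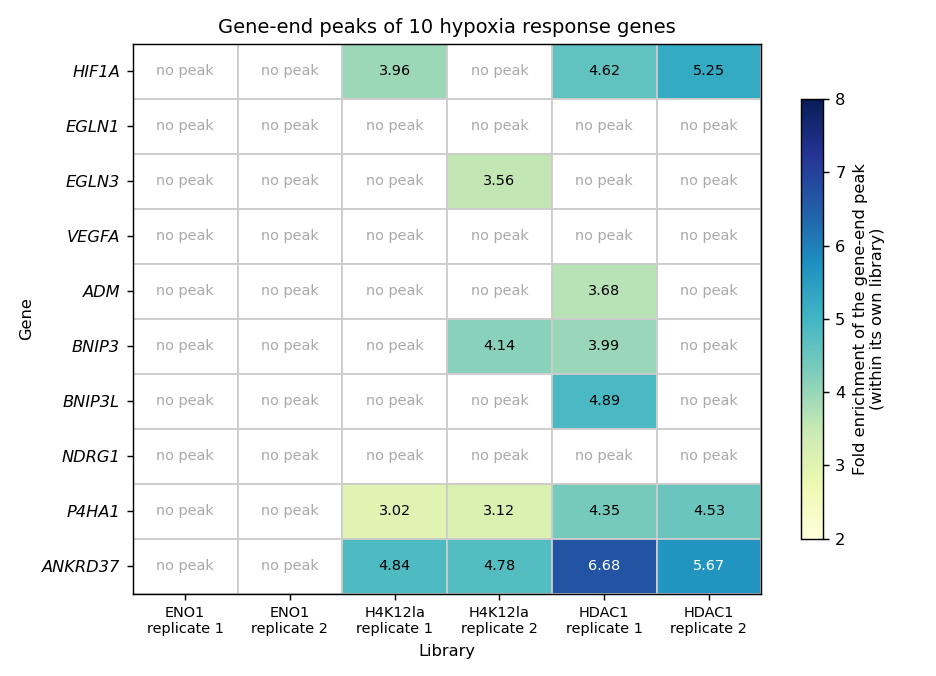
Fold enrichment of the gene-end peak (within 1 kb of either annotated end) of each of the 10 genes (rows) in each of the 6 libraries (columns), with the authors' fold printed in the cell and as colour. The ANKRD37 and P4HA1 rows are filled in all but the ENO1 columns, which hold no peak.

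A gene was called occupied by a target only if each of its 2 replicates had a gene-end peak there. ENO1 occupied 0 of the 10 hypoxia genes, against 0.0654% of all protein-coding genes (13 genes), so 0 of 10 lies near the background. H4K12la occupied 2 of the 10 (20%), ANKRD37 and P4HA1, against 10.5% of all protein-coding genes (2077 genes). HDAC1 occupied 3 of the 10 (30%), the same pair and HIF1A, against 8.18% (1626 genes). With 10 chosen genes each gene moves a share by 10 percentage points. These counts are too coarse to say whether the list differs from other genes, which was not tested. The lower of both replicates' folds had a median of 4.62 over the 3 HDAC1-occupied hypoxia genes, and 4.63 over all HDAC1-occupied genes. For H4K12la the medians were 3.90 over both hypoxia genes and 3.84 over all occupied genes.

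By library, ENO1 replicates 1 and 2 each had 0 of the 10 genes with a gene-end peak, against 0.166% and 0.101% of all protein-coding genes. H4K12la replicate 1 had 3 of the 10 (13.5% of all genes) and replicate 2 had 4 (19.5%). HDAC1 replicate 1 had 6 (14.8%) and replicate 2 had 3 (10.1%). The mean number per library was 0 ± 0 in ENO1 libraries, 3.5 ± 0.707 in H4K12la libraries and 4.5 ± 2.12 in HDAC1 libraries (SD, n = 2 each). In exact two-sided permutation tests over 4 libraries, ENO1 minus H4K12la was -3.5 (exact p = 0.333, 0.5 after Benjamini-Hochberg adjustment over 3 comparisons) and ENO1 minus HDAC1 was -4.5 (exact p = 0.333, adjusted 0.5). The smallest p this design allows is 0.333, so no difference could pass 0.05. With the 1189 strongest peaks of every list, ENO1 minus H4K12la was 0 and ENO1 minus HDAC1 was -0.5 (exact p = 1 each). H4K12la minus HDAC1 was -1 (exact p = 1, adjusted 1); its direction depended on the replicate, being 1 with replicate 2 alone and -3 with replicate 1 alone.

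HIF1A encodes the oxygen-regulated alpha subunit itself and lies on chromosome 14 (61695513 to 61748258, plus strand). Its gene-end fold was 3.96 in H4K12la replicate 1, with no peak in replicate 2, and 4.62 and 5.25 in HDAC1 replicates 1 and 2. The HDAC1 value averaged 4.93 ± 0.449 (SD, n = 2), at percentiles 47.8 and 67.6 of the gene-end peaks in replicates 1 and 2, so the gene ranked in the middle of the list or somewhat above it. Both HDAC1 peaks crossed the gene start, with summits 12 bp downstream of it in replicate 1 and 96 bp upstream in replicate 2. The H4K12la peak ended 0.187 kb short of the start, with its summit 513 bp upstream, and shared 332 and 150 bp with the HDAC1 peaks of replicates 1 and 2. The nearest peak of H4K12la replicate 2 lay 66.7 kb from that H4K12la peak, at the end of SNAPC1, a neighbouring gene for small nuclear RNA transcription, where H4K12la replicate 2 reached 4.50-fold and HDAC1 replicate 2 4.28-fold.

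EGLN1 and EGLN3 encode prolyl hydroxylases that act on the alpha subunit. EGLN1 (chromosome 1, 231363756 to 231422287, minus strand) had no gene-end peak in any library. Inside the gene, H4K12la replicate 2 had a peak of 3.48-fold, 36776 bp downstream of the start, and HDAC1 replicate 2 a peak of 4.17-fold, 14118 bp downstream; neither was found in the other replicate. These were the only gene-body peaks of all 10 genes. In the flank, HDAC1 replicate 1 reached 4.72-fold 25.6 kb from EGLN1, at the neighbouring ends of EXOC8 and SPRTN. EGLN3 (chromosome 14, 33924227 to 33951074, minus strand) had a single gene-end peak, H4K12la replicate 2 at 3.56-fold with its summit 541 bp downstream of the start. The other H4K12la replicate had its nearest peak 84.6 kb away, and no other library had a peak within 50 kb of the gene.

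VEGFA and ADM encode secreted products, the main growth factor for new blood vessels and the vasodilator peptide adrenomedullin. VEGFA (chromosome 6, 43770211 to 43786487) had no peak at its ends or inside it; its only peak within 50 kb was HDAC1 replicate 2 at 3.93-fold, 31.6 kb from the gene. The nearest H4K12la peak to VEGFA lay 134 kb away in both replicates and the nearest ENO1 peak 258 kb away in both. ADM (chromosome 11, 10305073 to 10307397, plus strand) had a gene-end peak in HDAC1 replicate 1 alone, at 3.68-fold with its summit 262 bp upstream of the start. That peak also touches the end window of SBF2, whose annotated end lies beside ADM, so it cannot be given to either gene. H4K12la had a 3.04-fold peak 1.37 kb from ADM in replicate 1, and peaks of 3.29-fold and 5.59-fold at 16.2 and 44.1 kb in replicate 2, none shared between replicates. The 3.04-fold and 3.29-fold peaks lay inside SBF2.

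BNIP3 and BNIP3L encode related outer mitochondrial membrane proteins that direct mitochondria to autophagy. BNIP3 (chromosome 10, 131967684 to 131981923, minus strand) had gene-end peaks in H4K12la replicate 2 (4.14-fold) and HDAC1 replicate 1 (3.99-fold). Those peaks lay on the same place: the whole H4K12la peak was inside the HDAC1 peak, 454 bp were shared, and the summits stood 26 bp apart, 125 and 99 bp downstream of the start. Neither was called in the other replicate of its target. BNIP3L (chromosome 8, 26383054 to 26413127) had 1 peak within 50 kb, HDAC1 replicate 1 at 4.89-fold across its low-coordinate end; the nearest peak of HDAC1 replicate 2 lay 923 kb away.

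NDRG1 (chromosome 8, 133237175 to 133297252), a stress-responsive gene widely used as a hypoxia marker, had no peak within 50 kb in any library, as was the case for 34.9% of all protein-coding genes. P4HA1 (chromosome 10, 73007217 to 73096866, minus strand) encodes the catalytic subunit of the collagen prolyl 4-hydroxylase. Its gene-end folds were 3.02 and 3.12 in H4K12la replicates 1 and 2, a mean of 3.07 ± 0.0658 (SD, n = 2), and 4.35 and 4.53 in HDAC1, a mean of 4.44 ± 0.123 (SD, n = 2). The H4K12la values were low in their lists, at percentiles 6.71 and 8.38 of gene-end peaks, with -log10 q of 4.38 and 5.30. The HDAC1 values stood at percentiles 37.7 and 42.6. All 4 peaks crossed the gene start, and each H4K12la peak shared 347 bp with HDAC1 replicate 1 and 358 bp with HDAC1 replicate 2.

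ANKRD37 (chromosome 4, 185396841 to 185400723, plus strand) encodes an ankyrin repeat protein and is a known HIF target. It had the highest gene-end fold of the hypoxia genes in all 4 libraries in which any had a peak: 4.84 and 4.78 in H4K12la replicates 1 and 2, and 6.68 and 5.67 in HDAC1. The means were 4.81 ± 0.0414 for H4K12la and 6.18 ± 0.715 for HDAC1 (SD, n = 2 each). These stood at percentiles 84.8 and 79.7 of H4K12la gene-end peaks and 91.0 and 77.9 of HDAC1 gene-end peaks. Within each HDAC1 list the occupied hypoxia genes had the same order. ANKRD37 came first, then HIF1A (4.62 and 5.25 in replicates 1 and 2), then P4HA1 (4.35 and 4.53). Differences between these genes were not tested. The ANKRD37 peaks also lay in the end window of LRP2BP, a neighbouring gene whose annotation overlaps the ANKRD37 start, so the values belong to both genes.

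**Figure D2:**
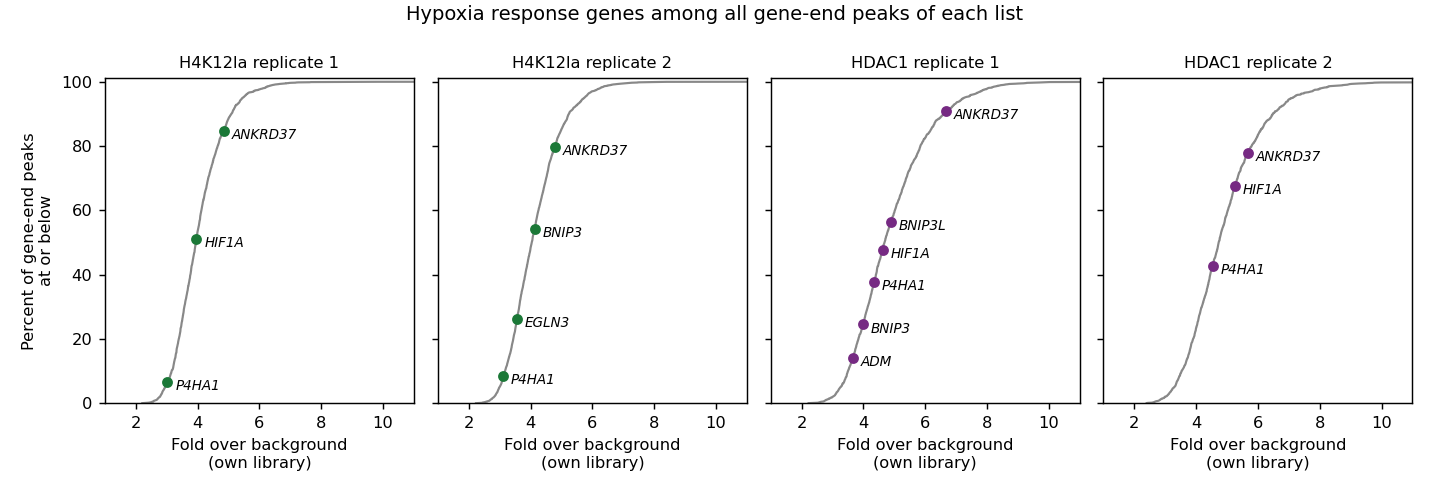
Each panel shows, for 1 list, the percent of all its gene-end peaks (vertical) at or below a fold enrichment (horizontal, grey line), with the hypoxia genes as points. ANKRD37 is the highest hypoxia gene in each panel, at percentiles 84.8, 79.7, 91.0 and 77.9, and P4HA1 lies at 6.71 and 8.38 for H4K12la.

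Of the 16 gene-end peaks, 10 overlapped a peak of the other replicate and 6 did not. The unmatched were 1 of 3 peaks in H4K12la replicate 1 (HIF1A), 2 of 4 in H4K12la replicate 2, 3 of 6 in HDAC1 replicate 1 and 0 of 3 in HDAC1 replicate 2. Over all gene-end peaks of these lists 24.9%, 49%, 46.1% and 20.5% were unmatched, in the same order, so the hypoxia genes were near the rest of each list. The unmatched peaks had folds of 3.56 to 4.89 and -log10 q of 3.98 to 8.74, and the nearest peak of the other replicate lay 63.3 to 923 kb away. None thus had a partner slightly displaced in the other replicate; whether the other library held signal below its threshold was not tested.

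The starts of 7 of the 10 genes (HIF1A, EGLN1, EGLN3, ADM, BNIP3, P4HA1 and ANKRD37) are given by the RefSeq promoter table of GRCh38.p14. All 15 gene-end peaks at these genes lay at the start, as did 95.3% of 8998 H4K12la and HDAC1 gene-end peaks of all genes with a start, a peak being counted for each gene it touches. The 250 bases before the start are printed 5′ to 3′ on the gene's own strand for ANKRD37 (chr4:185396591-185396840), HIF1A (chr14:61695263-61695512) and P4HA1 (chr10:73096867-73097116), which were occupied in both replicates of a target. EGLN1 (chr1:231422288-231422537), which had no gene-end peak, is shown beside them for contrast and was chosen after its values were seen. Capitals mark ACGTG and GCGTG on either strand.
ANKRD37: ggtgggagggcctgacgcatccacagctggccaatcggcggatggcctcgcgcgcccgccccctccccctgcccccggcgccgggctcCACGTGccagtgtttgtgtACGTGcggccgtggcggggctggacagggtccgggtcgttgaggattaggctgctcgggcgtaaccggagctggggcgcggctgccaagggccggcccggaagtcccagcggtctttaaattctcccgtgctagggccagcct 
HIF1A: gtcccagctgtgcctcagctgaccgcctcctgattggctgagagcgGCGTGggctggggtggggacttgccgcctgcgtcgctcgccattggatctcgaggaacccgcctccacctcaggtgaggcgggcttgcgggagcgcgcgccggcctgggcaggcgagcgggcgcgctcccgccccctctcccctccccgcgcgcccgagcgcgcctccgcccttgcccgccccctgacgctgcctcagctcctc 
P4HA1: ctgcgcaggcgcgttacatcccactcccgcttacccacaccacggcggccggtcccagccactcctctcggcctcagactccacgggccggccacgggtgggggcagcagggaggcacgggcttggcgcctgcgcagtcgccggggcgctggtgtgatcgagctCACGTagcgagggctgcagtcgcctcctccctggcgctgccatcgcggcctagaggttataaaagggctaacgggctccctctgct 
EGLN1: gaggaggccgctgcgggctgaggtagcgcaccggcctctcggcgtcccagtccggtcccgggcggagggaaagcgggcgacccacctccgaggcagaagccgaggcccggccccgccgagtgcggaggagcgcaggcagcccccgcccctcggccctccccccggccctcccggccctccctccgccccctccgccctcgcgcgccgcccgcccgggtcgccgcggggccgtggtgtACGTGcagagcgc

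ANKRD37 held ACGTG at 3 places, of which the first pair overlap as CACGTG, 162 to 157 bases before the start, and the next lies 143 to 139 bases before it. P4HA1 held it once on the opposite strand, 86 to 82 bases before the start, and HIF1A held GCGTG once, 204 to 200 bases before it. At these 3 genes the gene-end peaks covered these letters in 4 of 4 cases at ANKRD37, 4 of 4 at P4HA1 and 3 of 3 at HIF1A. At ADM 1 of 1 peak covered such letters, at EGLN3 0 of 1, and at BNIP3, whose 250 bases hold ACGTG at 2 places and GCGTG at 4, 0 of 2. That makes 12 of 15 peaks at 6 genes, against 34.9% of 8998 H4K12la and HDAC1 gene-end peaks of genes with a start; peaks of 1 gene share their sequence, so the 15 are not independent. EGLN1 held ACGTG 13 to 9 bases before its start, where no library had a peak. Over the 7 genes, 6 held ACGTG or GCGTG on either strand in these 250 bases (all but EGLN3), as did 50.8% of 13819 protein-coding promoters of the same length. ACGTG, with or without GCGTG, was present in 4 of the 7 and in 20.9% of promoters, GCGTG, with or without ACGTG, in 3 of the 7 and in 39.5%, and CACGTG, which contains ACGTG on both strands, in 2 of the 7 and in 7.87%. These matches describe letters, not bound sites.

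Most of the same windows held more CpG pairs than the median promoter. BNIP3 held 41 and EGLN1 36, at percentiles 98.2 and 94.5 of the 13819 promoters, whose median was 17. HIF1A held 29, ANKRD37 26, P4HA1 25, EGLN3 23 and ADM 16, the last just below the median of all promoters. Their percentiles were 83.1, 75.8, 73.1, 67.3 and 46.3, in the same order. EGLN1, without any gene-end peak, held more CpG pairs than ANKRD37 and P4HA1 with peaks in 4 libraries. BNIP3, which held the most, had gene-end peaks in 2 libraries. Whether the number of CpG pairs goes with occupancy was not tested.

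Summits can be placed against the start in each list. At ANKRD37 the H4K12la summits lay 528 and 533 bp upstream of the start in replicates 1 and 2, and the HDAC1 summits 307 and 242 bp upstream, so both HDAC1 summits stood closer to the start. At P4HA1 the order was not kept between replicates: H4K12la summits lay 322 bp downstream and 154 bp upstream, and HDAC1 summits 180 bp upstream and 39 bp downstream. Over all genes with a start and a peak there, the median distance from summit to start was 274 and 262 bp in the H4K12la lists and 227 and 217 bp in the HDAC1 lists. Measured from the ANKRD37 start, its H4K12la summits therefore lay beyond the upper quartile of their lists (473 and 478 bp). These peaks also lie in the end window of LRP2BP, so the distance cannot be given to ANKRD37 alone.

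**Figure D3:**
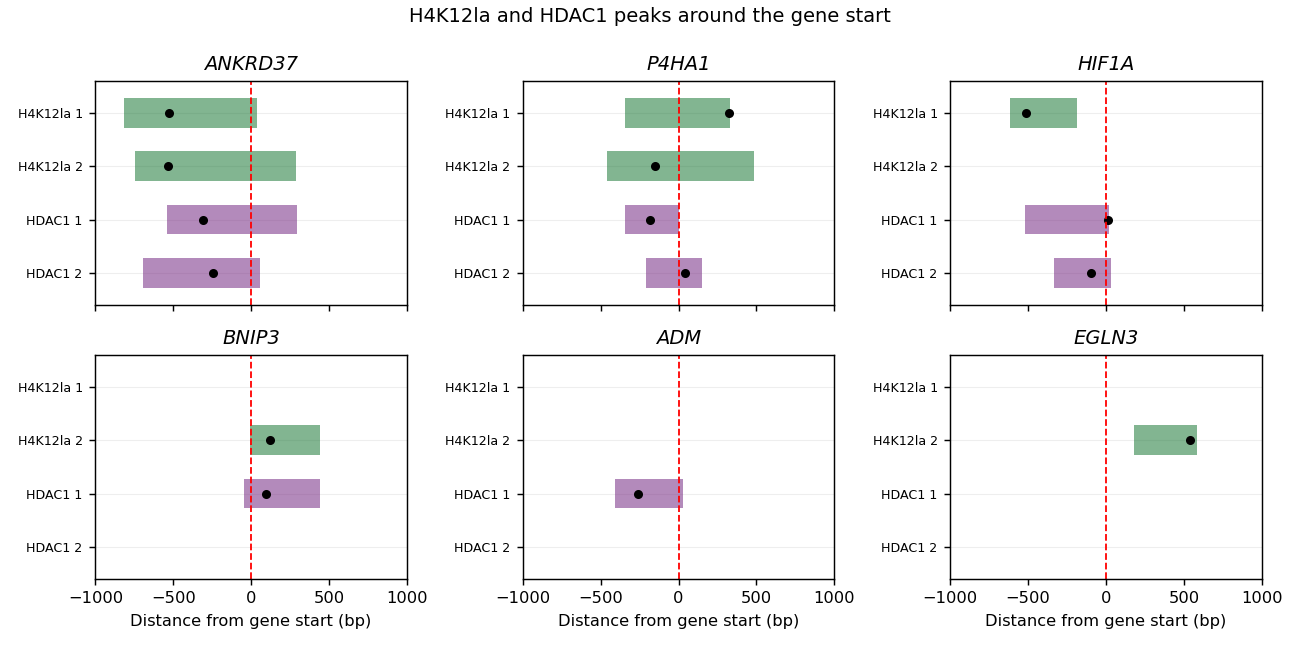
Gene-end peaks (bars) and their summits (black dots) by distance from the gene start in bp, upstream to the left, for 6 hypoxia genes in the 2 H4K12la and 2 HDAC1 libraries; the dashed line is the start. At ANKRD37 the H4K12la summits lie 528 and 533 bp upstream and the HDAC1 summits 307 and 242 bp upstream. The ANKRD37 peaks also lie in the end window of LRP2BP.

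An H4K12la and an HDAC1 gene-end peak of the same hypoxia gene could be paired across libraries 11 times, at 4 genes, 3 of these pairs with an H4K12la peak at HIF1A or BNIP3 that its replicate lacked. All 11 pairs overlapped, sharing 150 to 830 bp, and over all protein-coding genes 89.5% of 5168 such pairs did, so the overlap is close to that of other genes. At ANKRD37 the shared stretch was 67.6% to 86.0% of the H4K12la peak, the widest in base pairs of any member. Of the 3 hypoxia genes with HDAC1 in both replicates, 2 also had H4K12la in both, and of all 1626 HDAC1 genes 631 did (38.8%, or 30.4% of the 2077 H4K12la genes). Both targets together in both replicates were found at 3.18% of all protein-coding genes. No control library was used here, so shared occupancy cannot be told apart from places that any antibody recovers.

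The flanks held 17 peaks, of which 8 touched the end window of another protein-coding gene. The matching share for the flanks of all genes is not given. The strongest of all 35 peaks was of this kind: near the end of UFSP2, a protease gene of the UFM1 pathway 24.6 to 25.2 kb from ANKRD37, H4K12la reached 6.30-fold and 8.01-fold in replicates 1 and 2 and HDAC1 5.32-fold in replicate 1. Those H4K12la values were at percentiles 98.6 and 99.9 of gene-end peaks, above the peaks at ANKRD37 itself. Beside P4HA1, the end of NUDT13, a nudix hydrolase gene, held H4K12la at 4.12-fold and 4.43-fold, also above the P4HA1 values of 3.02-fold and 3.12-fold. A pair of H4K12la peaks 49.5 and 49.8 kb from BNIP3, inside PPP2R2D, a phosphatase subunit gene, was weak at 2.57-fold and 2.92-fold. HDAC1 replicate 1 had a 3.15-fold peak within both. H4K12la replicate 2 had a further 2.65-fold peak in PPP2R2D, 48.2 kb from BNIP3. Neither of these was found in the other replicate of its target.

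**Figure D4:**
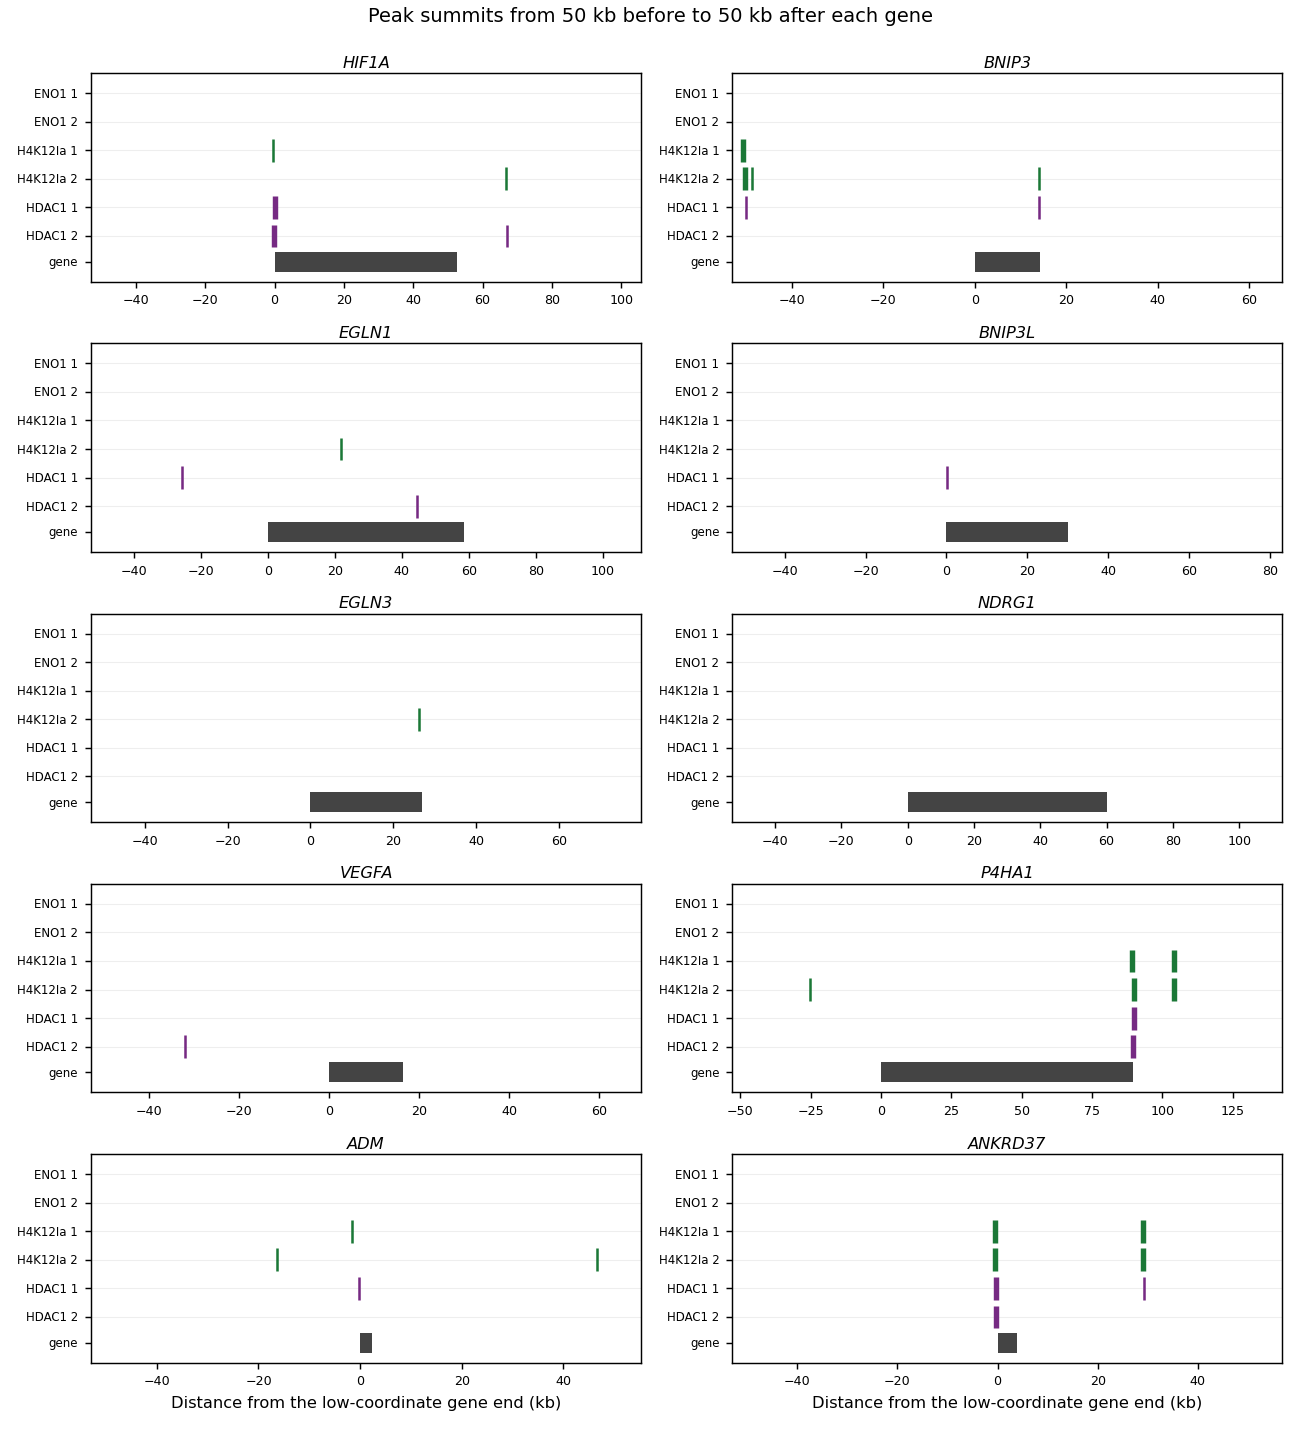
Summits of all peaks within 50 kb of each gene, by distance in kb from the gene's low-coordinate end (horizontal) and library (rows; ENO1 grey, H4K12la green, HDAC1 purple), with the gene as a dark bar; thick marks are peaks that overlap a peak of the other replicate. The ENO1 rows are empty in all 10 panels, and NDRG1 has no peak of any kind.

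In regions found in both replicates, ENO1 had 0 within 50 kb of the hypoxia genes, H4K12la 5 and HDAC1 3. The 3 HDAC1 regions all lay at the ends of hypoxia genes, as did 2 of the 5 H4K12la regions. The matching share for regions near other genes is not given, so this split is not a trait of the list. Such a region lay within 50 kb of 0 of the 10 genes for ENO1 (1.47% of all protein-coding genes), 3 for H4K12la (26.9%) and 3 for HDAC1 (24.4%), so the numbers for H4K12la and HDAC1 stood near those of other genes. Any peak in either replicate lay within 50 kb of 7 of the 10 genes for H4K12la (53.9% of all protein-coding genes) and of 8 for HDAC1 (44.8%). No hypoxia gene had a body peak in both replicates, against 0.393%, 4.61% and 2.76% of all protein-coding genes for ENO1, H4K12la and HDAC1.

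ENO1 peaks were sparse, and by median distance the 10 genes lay nearer to them than protein-coding genes in general, which was not tested. The nearest ENO1 peak lay 202 kb away at the closest gene, ADM, in both replicates, and 14029 kb away at HIF1A in replicate 1. The median distance was 1144 and 1379 kb for the 10 genes and 1934 and 3447 kb for all protein-coding genes in replicates 1 and 2. The ENO1 lists are the shortest, and 4.51% of all protein-coding genes had any ENO1 peak within 50 kb, so 0 of 10 lies near the background here too.

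Genes with the same presence over the 6 libraries were sought for the 3 hypoxia genes with gene-end peaks in at least 3 libraries. The pattern of ANKRD37 and P4HA1, 4 libraries of H4K12la and HDAC1 without ENO1, was shared by 618 protein-coding genes (3.11%, both included), and that of HIF1A by 70 (0.352%). By Euclidean distance of log2 fold over the libraries with a peak, LRP2BP stood at 0 from ANKRD37 because it shares its peaks, and KYAT3 and RBMXL1, which share theirs, at 0.15. ASXL1 was nearest to P4HA1 at 0.133, followed by MASTL and YME1L1, whose folds were the same in every library, at 0.208. UCP2, an inner mitochondrial membrane carrier gene, was nearest to HIF1A at 0.0809 over 3 libraries, with 3.75-fold in H4K12la replicate 1 and 4.68-fold and 5.23-fold in HDAC1. PRICKLE4 and TOMM6, again with the same folds as each other, followed at 0.12.

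A wider list of 89 other hypoxia genes, without glycolytic enzymes, was counted in the same way. It was chosen by name and is not the whole pathway. ENO1 occupied 0 of the 89, H4K12la 8 (8.99%, against 10.5% of all protein-coding genes) and HDAC1 16 (18%, against 8.18%), and only UGP2, which makes UDP-glucose, carried both. Among the 4 other HIF subunit genes (EPAS1, HIF3A, ARNT and ARNT2) none had a gene-end peak in any library. The same was true of 70.9% of all protein-coding genes. Of 16 genes of HIF turnover, inhibition and cofactors, H4K12la occupied 2 (12.5%), EP300 (3.68-fold and 4.34-fold), the coactivator acetyltransferase, and CUL2. HDAC1 occupied 4 (25%). These were RBX1 (7.83-fold and 6.67-fold in replicates 1 and 2), OS9 (4.93-fold and 6.01-fold), VHL itself (4.45-fold and 3.88-fold) and SIAH2. RBX1 is a ubiquitin ligase subunit that works with VHL.

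Among 20 transcription, signalling and stress targets HDAC1 occupied 6 (30%, against 8.18% of all protein-coding genes). These were CCNG2, an atypical cyclin gene (4.92-fold and 4.80-fold), DDIT4, an inhibitor of mTOR signalling (4.22-fold and 4.71-fold), BHLHE40, JUN, FAM162A and SPAG4. H4K12la occupied 1 (5%, against 10.5%), WSB1 (3.74-fold and 4.10-fold). H4K12la replicates 1 and 2 had gene-end peaks at 1 and 9 of these 20 genes, so replicate 1 set this count. Differences between the targets within these small groups were not tested. Among 17 metabolic regulators H4K12la and HDAC1 each occupied 4 (23.5%). H4K12la lay at UGP2 (4.32-fold and 4.22-fold), GBE1, the glycogen branching enzyme gene (4.14-fold and 4.47-fold), HIGD1A and SLC16A3, a lactate exporter gene (2.95-fold and 2.60-fold). HDAC1 lay at LONP1, a mitochondrial protease gene (6.70-fold and 5.60-fold), GYS1, the muscle glycogen synthase gene (4.74-fold and 5.43-fold), INSIG2 and UGP2. Of 20 secreted and surface targets H4K12la occupied 0, against 10.5% of all protein-coding genes. Of 12 hydroxylases and demethylases H4K12la occupied P4HA2 (3.89-fold and 3.32-fold), a paralogue of P4HA1, and HDAC1 occupied JMJD6 (8.33% of the group each). The median of the lower fold was 3.50 over the 8 H4K12la genes and 4.24 over the 16 HDAC1 genes, against 3.84 and 4.63 over all occupied genes.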

How the data were processed

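CUT&Tag libraries of HepG2 cells for 3 targets, with 2 replicates each, took their group and replicate number from the titles. FastQC, Bowtie2, MACS2, deepTools and the build hg38 are named in the submitters' processing notes; versions, settings and any control library were not given in the sources used. The authors deposited 1 narrow peak list for each library. Its fold is a ratio of summit signal to background within that library, its p and q values are given as -log10, its deposited score is 10 times the -log10 q without decimals, and its offset gives the summit. The lowest -log10 q in each list lies just above 2, a q value of 0.01.

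From these lists, peaks on 24 chromosomes were assigned with Python 3.11.15 and pandas 2.3.3 to the ends (1 kb on each side), body (outside those windows) and flanks (50 kb) of 19866 protein-coding genes of RefSeq GRCh38.p14, leaving out 718 entries of other sequences that carry a chromosome's name. An overlap of 1 bp counted. Starts and strands came from the RefSeq promoter table, which matched 7 of the 10 genes; VEGFA, BNIP3L and NDRG1 had no entry. The assignment was tested on simulated data. NDUFA4L2, the last of 90 genes of the wider list, was not in the annotation. Named genes were all 10 hypoxia genes, genes sharing a peak with them, up to 3 genes of like pattern, and up to 5 of the wider list per target; further genes of that list were chosen after their values were seen. The members, lists and tests were chosen with earlier results of these data known. Alternatives were other windows, thresholds, equal list lengths, leaving out each replicate and a replicate block. A single result of the wider list is not reported here.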

Additional observations from a re-analysis of the deposited data

How the results depend on the processing

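Occupied hypoxia genes (ENO1 0, H4K12la 2, HDAC1 3) were as many with windows of 500 bp and 5 kb, with the gene start alone (for the 7 genes with one) and with the summit required in the window. At -log10 q of 5 or more, H4K12la kept ANKRD37 alone (1 gene) and 3 of its regions within 50 kb. With the 1189 strongest peaks of every list, H4K12la and HDAC1 each occupied 0 of the genes, ENO1 minus H4K12la was 0, and ENO1 minus HDAC1 and H4K12la minus HDAC1 were each -0.5; that setting uses fewer peaks by construction. With 1 replicate left out, gene-end numbers were 0 with ENO1, 3 to 4 with H4K12la and 3 to 6 with HDAC1; gene-body numbers were 0 for ENO1, 0 to 1 for H4K12la and 0 to 1 for HDAC1; and the counts within 50 kb, then single peaks, were 0 for ENO1, 7 to 13 for H4K12la and 6 to 9 for HDAC1. At -log10 q of 5 or more, ENO1 minus H4K12la was -2, ENO1 minus HDAC1 was -4.5 and H4K12la minus HDAC1 was -2.5. With 1 replicate left out, the difference per library ranged from -4 to -3 for ENO1 minus H4K12la, from -6 to -3 for ENO1 minus HDAC1 and from -3 to 1 for H4K12la minus HDAC1, which reversed to 1 without replicate 1; the cause was not tested. With the replicate number as a block (exact sign-flip test over 2 pairs, smallest p 0.5), the differences were -3.5 (exact p = 0.5), -4.5 (exact p = 0.5) and -1 (exact p = 1). The labels do not say that a number marks a shared day or batch, so the samples share only a number. Depth is unknown, and what the lists can show is limited by their length.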

Other observations

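The H4K12la replicates differed over the wider list of 89 hypoxia genes: 10 had a gene-end peak in replicate 1 and 23 in replicate 2, while over all protein-coding genes 2675 and 3877 had. Among the 20 transcription, signalling and stress targets of that list, H4K12la replicate 1 had a gene-end peak at 1 gene and replicate 2 at 9. This was the widest gap of its groups, named after the values were seen. HIF turnover, inhibition and cofactors had 2 and 7. Metabolic regulators had 6 and 6, hydroxylases and demethylases 1 and 1, and the other groups 0 and 0. The HDAC1 replicates had 25 and 19 of the 89, and 2949 and 2006 of all protein-coding genes. These are values of single libraries, with no test.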
